A study of Bos taurus with 6 samples.

Results

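The HOX genes of clusters A to D were examined in rumen epithelial primary cells (REPC) of cattle before and after butyrate. Every row of the deposited gene tables whose symbol is HOX followed by a cluster letter from A to D and a number was taken, which gave 36 of 32183 rows: 11 of HOXA, 7 of HOXB, 9 of HOXC and 9 of HOXD. The series profiled RNA from 6 cultures of cells isolated from 1 Holstein bull calf of 2 weeks that had received only milk replacer. The control group (CO) was 3 cultures, and the butyrate group (BT) was 3 cultures taken 24 h after butyrate, which the study's methods give as 5 mM. All cultures derive from that animal, so spread between them is not spread between animals, and p-values measure only the spread between these samples, which may be technical. Butyrate is a short-chain fatty acid made by rumen microbes and an inhibitor of histone deacetylases, and the comparison asks how RNA levels differ after exposure to it.

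HOX genes encode homeodomain transcription factors that give cells an address along the head-to-tail axis of the embryo. They lie in clusters, in which a gene's number follows its place: low numbers sit at the 3′ end and are typically switched on early and towards the head, high numbers sit at the 5′ end and are switched on later and towards the tail. Genes with the same number in different clusters are paralogs. Many adult cells keep part of the embryonic HOX pattern, with Polycomb proteins holding silent genes off, trithorax proteins holding active genes on, and retinoic acid known as an inducer of 3′ genes. The rumen is a forestomach chamber, and HOX genes take part in patterning the gut along its length.

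Levels are given as FPKM, fragments per kilobase of transcript scaled to the mapped fragments of the library, which allows genes of different length to be compared. Implied depth was similar in the 2 groups, with 5756609 to 6186809 fragments in control and 5807066 to 6142208 in butyrate cultures, as approximated from the confidence bounds of all FPKM values. The cultures expressed keratins (KRT8 from 1309 to 1416 and KRT5 from 366 to 422 FPKM in controls), and 13 of 16 epithelial markers had a control mean of at least 1. ESRP1 (0.781) and EPCAM (0.540) had lower control means, and GRHL2 was listed at 0 in every control. Of 15 fibroblast markers 10 had a control mean of at least 1, with VIM from 2411 to 2530 and COL1A1 from 1109 to 1173 FPKM in controls. PDGFRA (0.306), TWIST1 (0.227), LUM (0.149), PDGFRB (0.0203) and FAP (0.0150) had lower control means. Of 7 smooth muscle markers 4 had a control mean of at least 1, with ACTA2 from 2637 to 2817 FPKM in controls. MYLK (0.989), MYH11 (0.662) and DES (0.367) had lower control means. Of 7 endothelial markers 1 (CDH5) and of 8 immune markers 4 (PTPRC, CD4, LYZ and MS4A1) were at 0 in all 6 cultures, while others had signal, with control means of 1.54 FPKM for PECAM1, 0.456 for VWF, 5.57 for CD14 and 0.595 for CD68.

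HOX expression in REPC came almost wholly from the HOXC cluster. Of the 36 genes, 6 were above 0 in all 6 cultures, and these were HOXC4, HOXC5, HOXC6, HOXC8, HOXC9 and HOXC10. Another 15 genes, 41.7% of the HOX rows against 37.5% of all rows, were at 0 in all 6 cultures: 5 of HOXA, 3 of HOXB, 1 of HOXC and 6 of HOXD. The remaining 15 were above 0 in at least 1 culture and at 0 in at least 1. HOX genes above 0 in any control culture numbered 12, and 19 were above 0 in a butyrate culture.

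The summed FPKM over the HOXC members was 134, 131 and 134 in control cultures 1 to 3 and 83.4, 83.5 and 87.5 in butyrate cultures 1 to 3. Every butyrate culture lay below every control culture. The mean went from 133 ± 1.78 (SD, n = 3) to 84.8 ± 2.34 (SD, n = 3), a ratio of 0.638. HOXC held 99.7% of all HOX FPKM in control and 97.8% in butyrate cultures. The corresponding HOXA sum was 0.200 ± 0.212 in control and 0.354 ± 0.125 in butyrate cultures, and the groups overlapped. The HOXB sum was 0.174 ± 0.265 in control and 1.17 ± 0.813 in butyrate cultures, with overlap again. HOXD was listed at 0 in every control culture and summed to 0.173, 0.513 and 0.353 in the butyrate cultures (SD and n = 3 throughout).

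**Figure D1:**
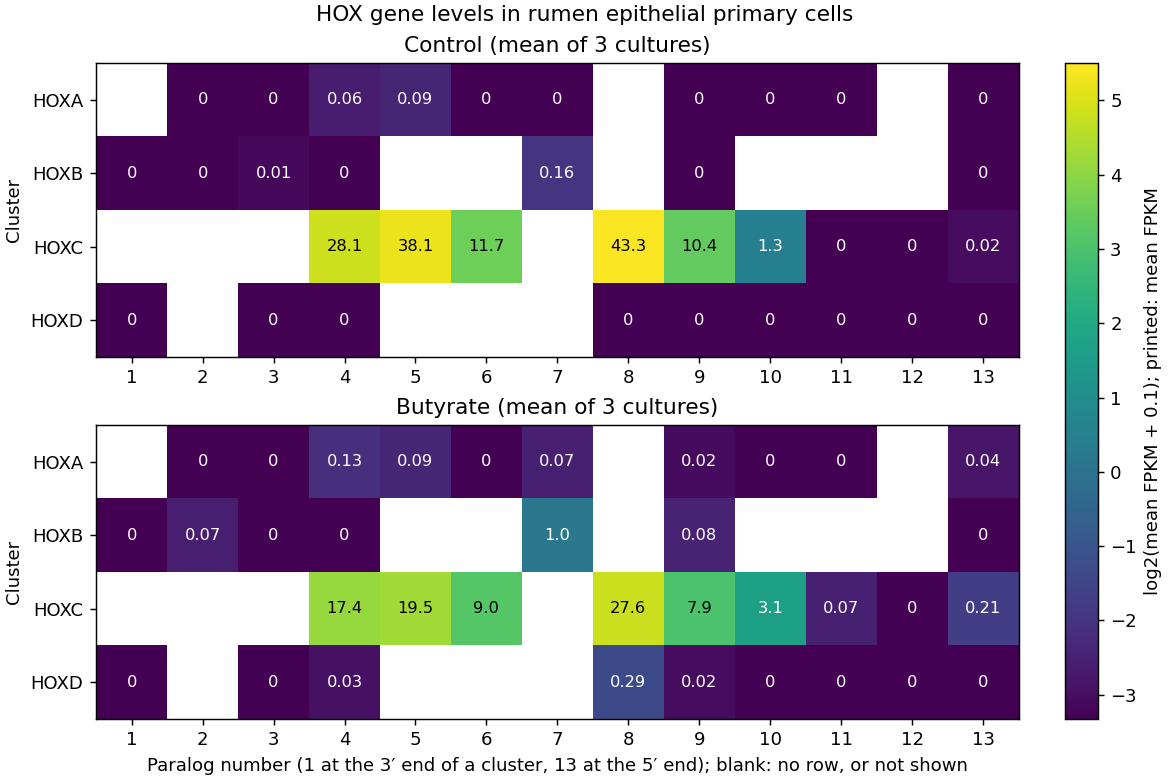
Mean FPKM of each HOX gene in control (top) and butyrate (bottom) cultures (n = 3 each), by cluster (rows) and paralog number (columns). Colour gives log2(mean FPKM + 0.1), the printed value is the mean FPKM, and blank squares have no row of that name or are not reported. HOXC4 to HOXC10 stand out in both groups, and most squares of the other clusters read 0.

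The plot of mean FPKM by cluster and paralog number shows that the expressed genes form an unbroken run of the HOXC members present, from HOXC4 to HOXC10. On the UMD3.1 assembly named in the submitters' processing notes, HOXC spans 26136685 to 26252263 on chromosome 5 (116 kb from HOXC4 to HOXC13). HOXA lies on chromosome 4, HOXB spans 38428215 to 38596261 on chromosome 19 and HOXD 20759109 to 20856063 on chromosome 2. The chromosome numbers were assigned from the genes each sequence holds. No cluster is larger than 168 kb, and HOXA3 overlaps HOXA4 by 2215 bases while HOXD11 overlaps both HOXD9 and HOXD10, so reads of those genes cannot be assigned with certainty. None of the HOXC genes overlap each other.

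Of the 36 HOX genes, 9 had a mean FPKM of at least 0.1 over the 6 cultures and were tested between the groups. HOXC4, HOXC5 and HOXC8 fell, HOXC10 rose, and HOXB7, HOXC6 and HOXC9 did not pass, at an adjusted p under 0.05 (limma with Benjamini-Hochberg adjustment over 15813 genes, as for all adjusted p-values here unless stated). HOXC13 and HOXD8 also passed, but their control means were under 0.1 FPKM and they entered the test through the butyrate cultures alone, so that a pass could only be a rise and it supports nothing here. Of all genes tested 58.4% changed, 25.9% falling and 32.5% rising, so a call on a gene was common in this comparison. The groups did not overlap for 65.0% of all genes tested (28.9% lower and 36.1% higher after butyrate), and among the HOX genes they did not overlap for HOXC4, HOXC5 and HOXC8 (lower) and for HOXC10, HOXC13 and HOXD8 (higher). None of the 9 was a differentially expressed gene (DEG) by the study's thresholds, against 3.97% of all genes. These thresholds ask for a log2 fold change over 2 in size beside a Bonferroni-adjusted p under 0.05. They were applied here to the limma fit, whereas the study tested with the Cufflinks tools, so the study's own calls may differ. Of the 9, 7 had an unadjusted p under 0.05 (limma). Rescaling each culture to the same total moved the median of all genes from 0.10 to 0.23. Relative to the median of all genes, the log2 fold change was -0.79 for HOXC4, -1.07 for HOXC5, -0.76 for HOXC8 and 1.17 for HOXC10. These 4 genes kept their calls under every other pseudocount, filter, scaling and fit run and with each culture left out, but HOXC4, HOXC5 and HOXC8 changed by less than 1 on the log2 scale and would not be called if that size were required.

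HOXC8, a central-group gene known for its role in the trunk and limb region, was the most abundant HOX gene. It measured 43.0, 41.2 and 45.9 FPKM in the control cultures and 28.2, 25.9 and 28.6 FPKM in the butyrate cultures. The groups did not overlap, and HOXC8 fell by 0.65 on the log2 scale (95% interval -0.81 to -0.49, adjusted p = 5.9e-05, limma). Fold changes are on the log2(FPKM + 0.1) scale, which understates changes of genes with low levels.

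HOXC5 followed at 39.0, 37.5 and 37.8 FPKM in control and 19.2, 18.7 and 20.5 FPKM in butyrate cultures. Every butyrate value was below every control value, and the butyrate mean was 0.511 of the control mean, the lowest ratio among the HOXC genes expressed in all cultures. It fell by 0.96 on the log2 scale (95% interval -1.11 to -0.82, adjusted p = 3.7e-06, limma). HOXC5 alone among the tested HOX genes also passed the Bonferroni adjustment (Bonferroni-adjusted p = 0.0038, limma), with a change under the log2 fold change of 2 required of a DEG. That pass was lost without the trend (Bonferroni-adjusted p = 0.31, limma), with the replicate block (0.078), and without any culture other than butyrate culture 3 (0.053 to 0.074).

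HOXC4, the member at the 3′ end of this cluster, measured 27.9, 27.8 and 28.6 FPKM in control and 16.1, 18.3 and 17.9 FPKM in butyrate cultures. The groups again did not overlap, and HOXC4 fell by 0.69 on the log2 scale (95% interval -0.85 to -0.52, adjusted p = 6.0e-05, limma). These values rest on an implied 183 to 337 fragments per culture for HOXC4, 67.0 to 138 for HOXC5 and 412 to 781 for HOXC8.

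HOXC6 and HOXC9 were expressed at a lower level and their groups overlapped. HOXC6 measured 13.2, 11.5 and 10.5 FPKM in control and 8.35, 11.4 and 7.24 FPKM in butyrate cultures, with a log2 fold change of -0.40 (95% interval -0.78 to -0.02, adjusted p = 0.069, limma). Butyrate culture 2 lay within the control range, and with a culture left out the log2 fold change ran from -0.58 without butyrate culture 2 (adjusted p = 0.0095, limma) to -0.26 without butyrate culture 3 (adjusted p = 0.22, limma). HOXC9 measured 9.42, 10.9 and 10.9 FPKM in control and 8.23, 5.19 and 10.4 FPKM in butyrate cultures, with a log2 fold change of -0.44 (95% interval -0.95 to 0.07, adjusted p = 0.12, limma). There butyrate culture 3 lay within the control range, and with a culture left out the log2 fold change ran from -0.66 without butyrate culture 3 (adjusted p = 0.029, limma) to -0.17 without butyrate culture 2 (adjusted p = 0.34, limma). Neither gene passed the test with all 6 cultures.

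HOXC10, a posterior gene active in the hindlimb and lumbar region of embryos, moved the other way. It measured 1.08, 1.97 and 0.867 FPKM in control and 3.05, 3.57 and 2.75 FPKM in butyrate cultures. All butyrate values were above all control values, and HOXC10 rose by a log2 fold change of 1.27 (95% interval 0.61 to 1.93, adjusted p = 0.0050, limma). Its mean level went from 1.30 ± 0.587 to 3.13 ± 0.413 FPKM (SD, n = 3), on an implied 11.0 to 48.7 fragments per culture.

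**Figure D2:**
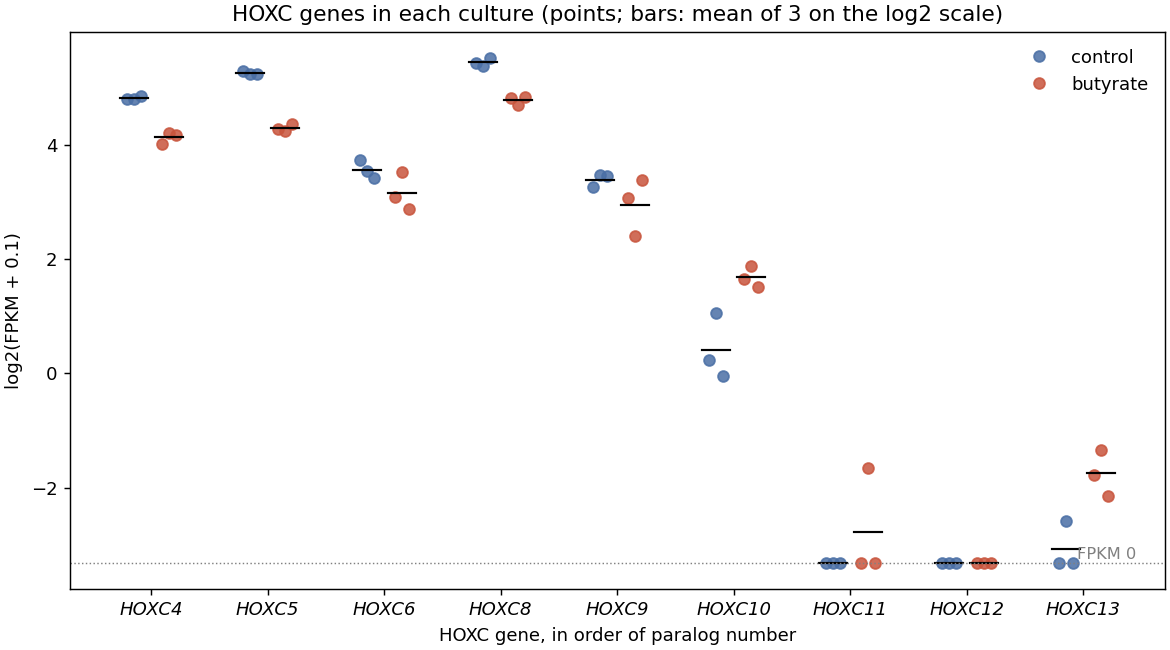
Level of the 9 HOXC genes in each culture, as log2(FPKM + 0.1), with control cultures in blue, butyrate cultures in red and a bar at the mean of 3. HOXC4, HOXC5 and HOXC8 lie lower in every butyrate culture, HOXC6 and HOXC9 overlap, and HOXC10 and HOXC13 lie higher in every butyrate culture.

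HOXC13, at the 5′ end of the cluster and known for its part in hair and nail keratinocytes, was near the detection limit. It was at 0, 0.0668 and 0 FPKM in control and at 0.191, 0.298 and 0.128 FPKM in butyrate cultures. The groups did not overlap (adjusted p = 0.039, limma), but the gene met the minimum level for the test through the butyrate cultures alone, so the p is a description. The values rest on about 1 fragment over the control and 10 over the butyrate cultures, a ratio of 10 with an exact 95% counting interval of 1.42 to 434. The adjusted p was 0.096 without control culture 1 and 0.098 without control culture 3 (limma), and the gene was too low to be tested without butyrate culture 1 or 2. HOXC11 had a value in butyrate culture 2 alone (0.216 FPKM, about 1 fragment), and HOXC12 was at 0 in all 6 cultures.

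In the control cultures the order of HOXC levels was HOXC8, HOXC5, HOXC4, HOXC6, HOXC9, HOXC10 and HOXC13. HOXC6 and HOXC9 overlapped in range in both groups, and every other pair of neighbours in that order was separate in both. HOXC8 lay above 86.0%, HOXC5 above 84.5%, HOXC4 above 80.6% and HOXC10 above 38.8% of the rows with a control mean above 0. Among the 144 rows of HOX and other listed homeobox genes, HOXC8 ranked 6, HOXC5 ranked 7 and HOXC4 ranked 8 in control, after PRRX2, PITX1, IRX3, PRRX1 and TGIF1.

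The same levels can be read as shares of the cluster's signal. HOXC8 made up 32.6% ± 1.39 of the summed HOXC FPKM in control and 32.5% ± 1.43 in butyrate cultures. HOXC5 made up 28.7% ± 0.579 in control and 23.0% ± 0.534 in butyrate cultures. HOXC10 made up 0.985% ± 0.457 in control and 3.69% ± 0.565 in butyrate cultures (SD, n = 3). Within a culture, the ratio of HOXC10 to HOXC8 was 0.0189 to 0.0479 in control and 0.0964 to 0.138 in butyrate cultures, and the ranges of the ratio of HOXC5 to HOXC8 were also separate (0.823 to 0.912 against 0.682 to 0.723). The ratio of HOXC4 to HOXC8 overlapped, at 0.623 to 0.675 in control and 0.571 to 0.707 in butyrate cultures. These ratios were chosen after the values were seen and are given with no test.

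The estimates differed in sign along the HOXC cluster. From HOXC4 to HOXC9 all 5 expressed genes had a negative log2 fold change, between -0.96 and -0.40, and 3 of them fell. Beyond HOXC9, HOXC10 rose with a log2 fold change of 1.27. The estimate for HOXC13, 1.33, depends on the added 0.1 and comes from a gene tested only through its butyrate values, so HOXC10 is the 1 gene beyond HOXC9 on which the pattern can rest. With central genes defined as numbers 4 to 8 and posterior genes as 9 to 13, the median log2 fold change of the 3 tested posterior HOXC genes was 1.94 above that of the 4 central ones. That difference was 0.88 when 1 was added in place of 0.1. It was 1.04 without butyrate culture 1 and 1.17 without butyrate culture 2, where HOXC13 was too low to be tested, so its size rests on that gene and it is given as a description.

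**Figure D3:**
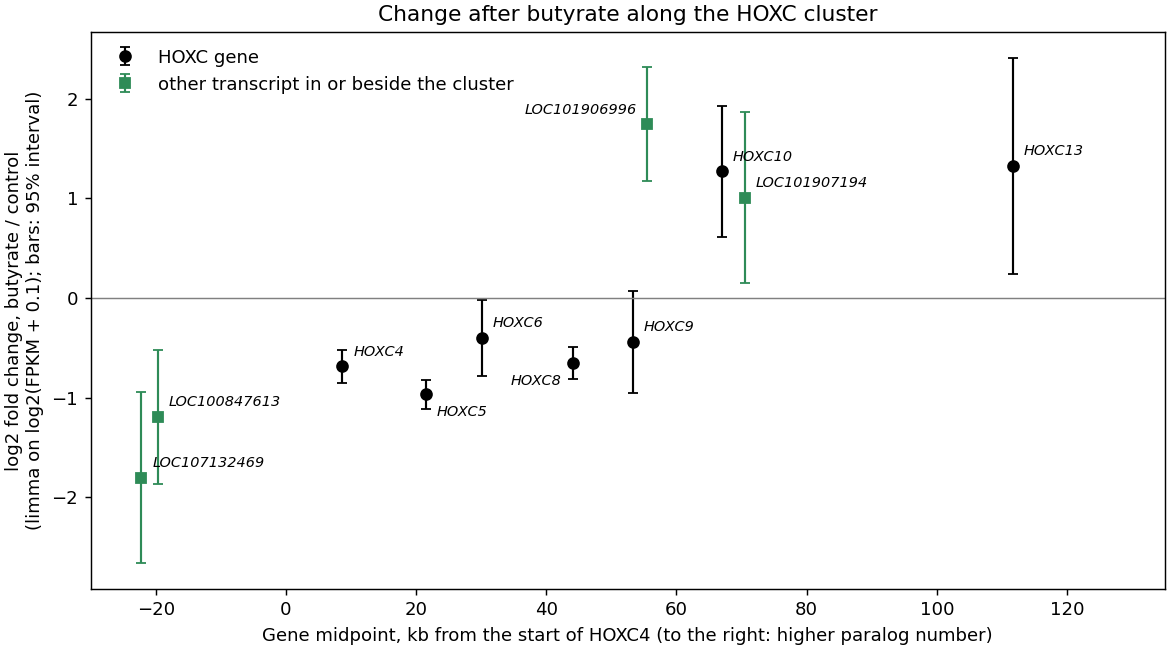
Log2 fold change (butyrate over control, limma on log2(FPKM + 0.1), bars the 95% interval) against the distance of each gene's midpoint from the start of HOXC4 in kb, for HOXC genes (black circles) and other tested transcripts in or within 50 kb of the cluster (green squares). Estimates are negative up to HOXC9 and positive from LOC101906996 onwards.

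Across all clusters, none of the 8 anterior genes (numbers 1 to 3) had enough signal to be tested. Of the 12 central genes 6 were tested, and their summed FPKM went from 122 in control to 75.1 in butyrate cultures, almost all of it HOXC. Of the 16 posterior genes 3 were tested, and the sum was 11.7 in control and 11.5 in butyrate cultures. In paralog group 8, the C member HOXC8 fell, while the D member HOXD8 was above 0 in the butyrate cultures alone. In group 4, all 4 clusters have a row, and the control mean was 28.1 FPKM for HOXC4, 0.0634 FPKM for HOXA4 and 0 for HOXB4 and HOXD4. In group 9, all 4 clusters likewise have a row, and HOXC9 was the member above 0 in control.

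The plot of genes with little signal shows the other clusters culture by culture. HOXD8 was at 0 in all 3 control cultures and at 0.173, 0.416 and 0.287 FPKM in the butyrate cultures, on an implied 1.78 to 5.46 fragments each. Its adjusted p was 0.0057 (limma), but with all controls at 0 it could be tested only through the butyrate cultures, so the p is a description, and no fold is given against a group listed at 0. The adjusted p was 0.096 under quantile normalization (limma), and without butyrate culture 2 the gene was too low to be tested. HOXD4 in butyrate culture 2 (0.0975 FPKM) and HOXD9 in butyrate culture 3 (0.0662 FPKM) were the other HOXD values above 0. Both rest on about 1 fragment or less.

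HOXB7 measured 0.479, 0 and 0 FPKM in control and 1.41, 0 and 1.68 FPKM in butyrate cultures. The groups overlapped at 0, and the test was not passed (adjusted p = 0.20, limma). With a culture left out the adjusted p ran from 0.015 without butyrate culture 2, which was at 0, to 0.49 without butyrate culture 3 (limma), and each value above 0 rests on an implied 0.375 to 2.43 fragments. HOXB3 was above 0 in control culture 2 (0.0436 FPKM), HOXB2 in butyrate culture 1 (0.197 FPKM) and HOXB9 in butyrate culture 2 (0.235 FPKM). No HOXB gene passed the test.

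HOXA5 and HOXA4 were near the detection limit. HOXA5 measured 0.0855, 0 and 0.174 FPKM in control and 0.187, 0 and 0.0939 FPKM in butyrate cultures. HOXA4 measured 0.0931, 0 and 0.0970 FPKM in control and 0.0965, 0.0904 and 0.196 FPKM in butyrate cultures. Both genes overlapped between the groups. HOXA7 was above 0 in the 3 butyrate cultures alone, at 0.0538, 0.0493 and 0.108 FPKM. HOXA13 in butyrate cultures 1 and 2 and HOXA9 in butyrate culture 3 were at most 0.0745 FPKM. None of the HOXA genes reached the mean of 0.1 FPKM needed for the test, and the 12 untested HOX genes with any value had at most 5 fragments in a culture. Of the 24 HOX genes at 0 in every control culture, 9 were above 0 in a butyrate culture. Genes with any value numbered 16051 to 16193 in the control and 17306 to 17510 in the butyrate cultures over all rows, and the part of that difference in the HOX counts was not tested.

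**Figure D4:**
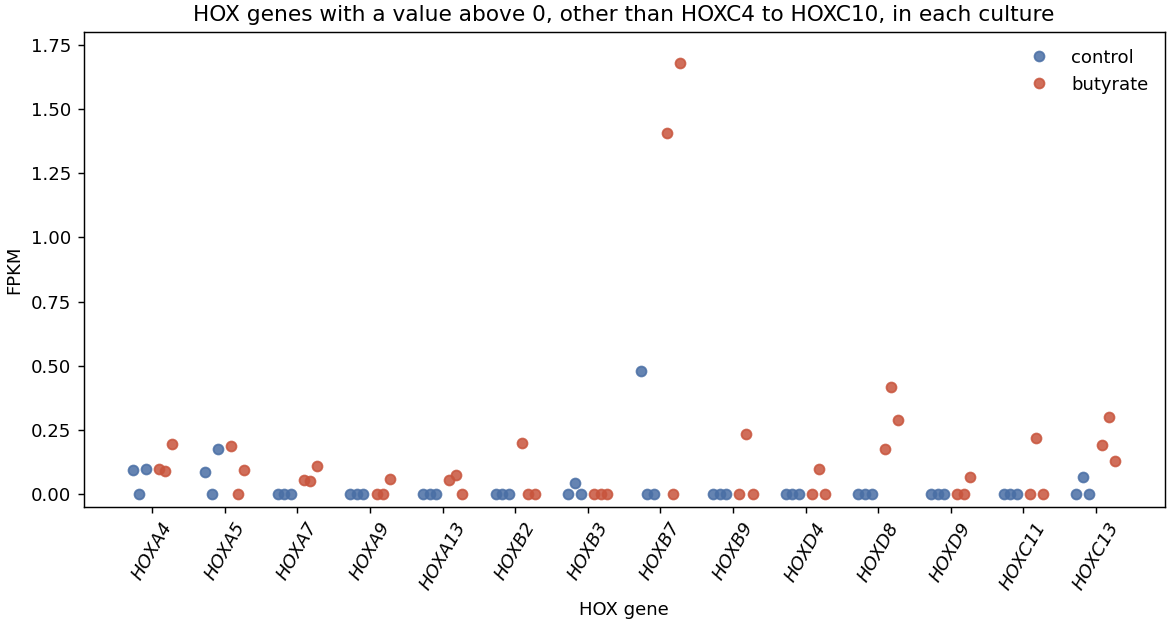
FPKM in each culture of 14 of the 15 HOX genes that were above 0 in at least 1 and at 0 in at least 1 culture (1 is not reported), with control cultures in blue and butyrate cultures in red. Apart from HOXB7, no value exceeds 0.416 FPKM, and HOXA7 and HOXD8 are above 0 in all butyrate cultures and at 0 in all control cultures.

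Transcripts that lie between the HOX genes were measured as well. LOC101906996, which starts 349 bases beyond HOXC9 and lies before HOXC10, measured 4.69, 2.55 and 2.49 FPKM in control and 8.71, 12.8 and 10.7 FPKM in butyrate cultures. Its groups did not overlap, and it rose by a log2 fold change of 1.74 (SE 0.25, adjusted p = 3.7e-04, limma). LOC101907194, a long noncoding RNA 352 bases beyond HOXC10, measured 0.235, 0.248 and 0.484 FPKM in control and 0.960, 0.821 and 0.465 FPKM in butyrate cultures. It rose although the groups overlapped in butyrate culture 3 (log2 fold change 1.01, SE 0.37, adjusted p = 0.046, limma). On the HOXC4 side, the long noncoding RNAs LOC100847613 and LOC107132469 fell, with log2 fold changes of -1.19 and -1.804 (adjusted p = 0.0076 and 0.0032, limma). Their levels were low, with means from 1.26 to 0.482 FPKM for LOC100847613 and from 0.625 to 0.116 FPKM for LOC107132469. LOC107132469 lies within the span of LOC100847613, so these rows may share reads and may not be separate falls. Whether the libraries kept the strand is not given in the sources used here, so reads of a HOX gene and of a partner on the opposite strand may not be separable.

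In the HOXA cluster, the long noncoding RNA LOC100848443 lies 440 bases from HOXA2, towards the 3′ end of the cluster. It measured 0.260, 0 and 0 FPKM in control and 1.71, 1.34 and 1.995 FPKM in butyrate cultures. All butyrate values were above all control values (adjusted p = 4.5e-04, limma), while HOXA2 was at 0 in all 6 cultures. LOC100848443 had a control mean of 0.0868 FPKM and met the minimum level for the test through the butyrate cultures alone. A pass could only be a rise, so the p is a description. The microRNA rows inside the clusters (MIR10A, MIR10B, MIR196A-1, MIR196A-2, MIR196B, MIR615 and MIR2886) were all at 0. These rows are shorter than the paired reads that the study's methods describe, so a listing of 0 does not show that the microRNAs were absent.

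Genes that flank the clusters were compared within 500 kb of the outermost HOX members. Around HOXC 19 were tested, 6 rose and 8 fell, where 32.5% and 25.9% of all genes tested did so. Of those that rose, NFE2 had a control mean of 0.0289 FPKM and was tested through the butyrate cultures alone. ZNF385A (log2 fold change 1.99) and CALCOCO1 (1.43) were among those that rose, and TARBP2 (-1.39), CBX5 (-1.37) and HNRNPA1 (-1.02) among those that fell, with those 3 named after their values were seen. Around HOXB 11 were tested, 3 rose and 3 fell. Around HOXA 4 were tested and 2 rose, and around HOXD 3 were tested and 2 fell.

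HOX proteins bind DNA together with the homeodomain partners PBX, MEIS and PKNOX, and 8 of the 9 genes of this list were tested. MEIS1 measured 27.7, 25.5 and 28.5 FPKM in control and 42.1, 42.5 and 39.4 FPKM in butyrate cultures, and it rose by a log2 fold change of 0.60 (SE 0.07, adjusted p = 8.2e-05, limma). MEIS3 rose by 1.55 (SE 0.18, from 1.803 ± 0.164 to 5.52 ± 1.07 FPKM), and PBX3 fell by 0.71 (SE 0.11, from 11.2 ± 1.23 to 6.74 ± 0.410 FPKM), both without overlap. PBX2 (log2 fold change 0.20), PBX4 (1.07), MEIS2 (0.14) and PKNOX1 (0.07) did not pass. PKNOX2 was too low to be tested.

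**Figure D5:**
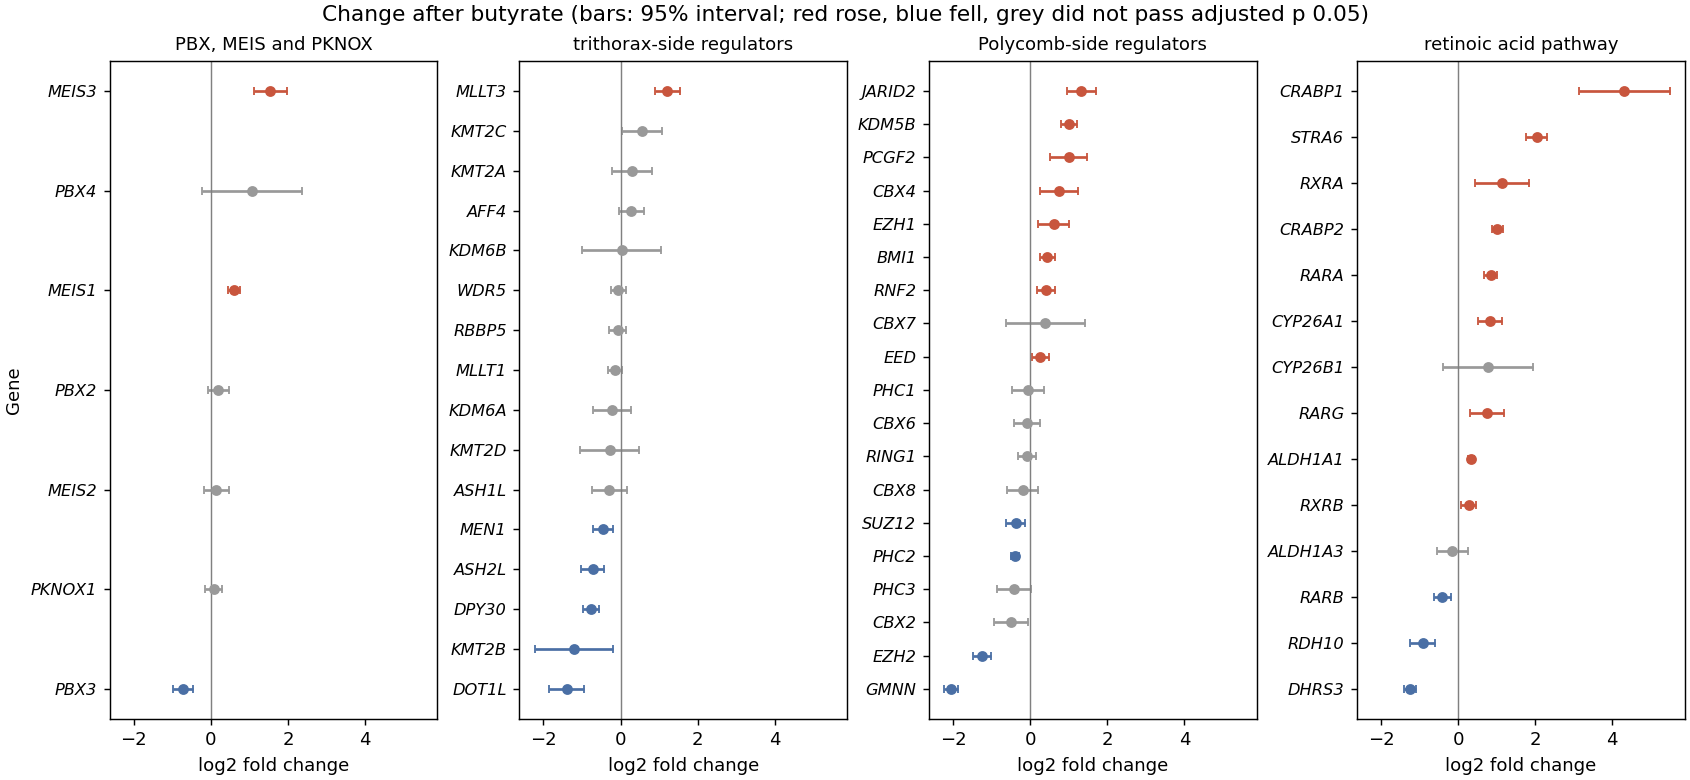
Log2 fold change (butyrate over control, limma, bars the 95% interval) of the tested HOX partners, trithorax-side regulators, Polycomb-side regulators and retinoic acid pathway genes, with red for genes that rose, blue for genes that fell and grey for genes that did not pass. A few genes of the lists are not shown. In the trithorax panel 5 of 16 genes fell and 1 rose. KMT2B, among those that fell, was tested through the control cultures alone and could only fall.

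The plot of partners and regulators also gives the upstream genes. Of 16 trithorax-side genes, which write or maintain active marks at HOX genes, 1 rose and 5 fell, beside the 32.5% and 25.9% of all genes tested that did so. MLLT3 rose (log2 fold change 1.21), and the H3K79 methyltransferase gene DOT1L (-1.40) and DPY30 (-0.76) fell. The H3K4 methyltransferase gene KMT2B, a complex partner of DPY30, is also counted as a fall (-1.22). Its mean was 0.358 FPKM in control and 0.0834 FPKM in butyrate cultures, so it met the minimum level through the control cultures alone. A pass could only be a fall, so that call is a description. KMT2B did not pass after rescaling to equal totals. KMT2A, the best known HOX activator of this list, did not pass. Of 19 Polycomb-side genes, 42.1% rose and 21.1% fell (8 and 4). The PRC2 methyltransferase gene EZH2 fell by 1.26 on the log2 scale, from 18.2 ± 1.33 to 7.54 ± 0.736 FPKM, and GMNN, a replication licensing inhibitor known to bind HOX and Polycomb proteins, fell by 2.06. The PRC2 partner JARID2 (1.32) and the H3K4 demethylase KDM5B (1.00) rose. Of 15 tested retinoic acid genes, 66.7% rose and 20.0% fell (10 and 3), among them the binding protein gene CRABP1 (4.31), the retinol transporter gene STRA6 (2.05) and the retinaldehyde reductase gene DHRS3 (-1.26).

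Markers of cell type moved with the treatment too. Of all genes tested 32.5% rose and 25.9% fell, and the counts of markers are to be read beside those shares. The summed FPKM of the 16 epithelial markers was 2622 to 2721 in control and 5353 to 5491 in butyrate cultures, and 11 of 15 tested rose while 1 fell. The sum of 15 fibroblast markers was 4509 to 4661 in control and 6509 to 6867 in butyrate cultures, with 10 of 13 tested rising and 2 falling. For 7 smooth muscle markers it was 6492 to 6820 in control and 2873 to 3481 in butyrate cultures, with 1 rising and 5 falling. MYH11, among those that fell, had a butyrate mean of 0.0762 FPKM. It was tested through the control cultures alone and could only fall. Summed endothelial (2.10 to 2.42 against 7.16 to 9.21), immune (5.12 to 7.15 against 7.23 to 9.48) and neural markers (122 to 130 against 272 to 294) were higher in butyrate cultures. The part of these shifts in the HOXC values was not tested, and in such bulk samples fewer cells of a type cannot be told apart from less RNA per cell.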

How the data were processed

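RNA-seq of 3 control and 3 butyrate REPC cultures was used, and the other assays of the study were not used here. The authors trimmed paired reads with Trim Galore 0.4.1, aligned them with STAR, kept uniquely mapped reads and deposited gene-level FPKM with confidence bounds from Cufflinks (versions of STAR and Cufflinks are not given in the sources used here). The submitters' processing notes name the build UMD3.1. FPKM values are no counts, and no count test was run.

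The 32183 rows of the 6 tables were joined by gene ID, name and locus, and 2 rows with a failed estimate, none of them HOX, were left out. Starts were read as 0-based and are printed 1-based. LOC names and, through shared symbols, chromosome numbers came from a RefSeq list of genes on ARS-UCD2.0. Fragments behind a value were approximated from its bounds, assuming they span 2 Poisson standard deviations either way.

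Log2(FPKM + 0.1) values of the 15813 rows whose FPKM averaged 0.1 or more were fitted in limma 3.58.1 (R 4.3.3), with the prior variance following the mean. A gene rose or fell at a Benjamini-Hochberg adjusted p under 0.05. For a DEG the Bonferroni-adjusted p had to be under 0.05 and the log2 fold change over 2 in size. The script was tested on simulated data. Sums, shares and positions are descriptions. Named were HOX genes passing the test, the 3 highest controls of each cluster, partners in full and up to 4 changed genes of other lists, and a few genes that this rule names are not reported here. HOX members and lists were chosen with earlier results of these data known. Alternatives were other pseudocounts, filters, scalings and positions, no trend, the replicate number as a block and each culture left out.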

Additional observations from a re-analysis of the deposited data

How the results depend on the processing

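The count of HOX genes past the adjusted p of 0.05 was 6, HOXC13 and HOXD8 included, and it was 4 to 7 over the other pseudocounts, filters, scalings, the fit without the trend and the replicate block. It was 5 to 7 with a culture left out, and 3 when a log2 fold change beyond 1 was also required, which leaves out the 3 genes that fell. The count of DEGs was 0 throughout, and 34 of 58 tested partners and regulators changed (30 to 38 under the alternatives), where 58.4% of all genes did. The HOXC sum, with a log2 ratio of -0.65, was -0.53 after rescaling to equal totals, -0.60 as the median of log2 values over the members, and -0.67 to -0.64 with a culture left out. The difference of posterior and central HOXC medians, 1.94, was 0.88 with 1 added in place of 0.1, 1.85 with the posterior group starting at HOXC10, and 1.04 to 2.26 with a culture left out. None of the 9 tested HOX genes changed sign under any alternative. HOXC13 did not pass with 1 added (adjusted p = 0.076, limma), under quantile normalization (0.60) or with the replicate block (0.052).

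With the replicate number as a block, 5 HOX genes passed, without HOXC13. Control and butyrate cultures of the same number did not deviate together (r of 0.0228, -0.00431 and 0.00177 over genes), so they share only a number. Genes with under about 5 fragments in a culture cannot be ranked at this depth, and a listing of 0 does not show that a HOX gene is silent. The approximate fragment counts cover counting error only.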

Other observations

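Homeobox genes outside the HOX clusters were measured over a list of 92 rows, of which 20 were at 0 in all 6 cultures and 51 were tested. Of these 43.1% rose and 19.6% fell (22 and 10), where 32.5% and 25.9% of all genes tested did so. DEGs numbered 2, near the 3.97% of all genes. Several of the genes that rose, IRX6 and RAX among them, were at 0 in every control culture. Such genes were tested through the butyrate cultures alone and could only rise, so the share that rose is a description. BARX1, a stomach mesenchyme homeobox gene, went from 0.291 ± 0.007845 FPKM in control to 10.4 ± 2.52 FPKM in butyrate cultures, and DLX4 from 1.42 ± 0.1804 to 22.3 ± 1.21 FPKM (SD, n = 3). PRRX1, a mesenchymal homeobox gene, fell from 54.8 ± 0.719 to 7.80 ± 3.61 FPKM. TLX3 was listed at 0 in control and measured 0.856 ± 0.245 FPKM in butyrate cultures. It could be tested only through the butyrate cultures, so a rise was the only possible call. Under quantile normalization 16 rose and 11 fell.

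The ParaHox and EVX genes, relatives of the HOX genes outside or at the end of the clusters, had 7 rows. Of these, 6 (CDX1, CDX2, CDX4, GSX1, GSX2 and EVX1) were at 0 in all 6 cultures, and PDX1 had a value in control culture 1 alone (0.405 FPKM). A row in the HOXB cluster named LOC785855, whose gene ID has the symbol HOXB8 in RefSeq, was at 0.230 FPKM in control culture 2 and at 0 in the other cultures. It is not counted among the 36 HOX genes.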
